A study of Rattus norvegicus with 12 samples.

Results

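The comparison described here sets left ventricles of rats infused with angiotensin II (AngII) on a normal sodium diet against ventricles of uninfused rats on the same diet. It holds 6 of the 12 arrays of the series, 3 in each group, and the members were taken from the sample titles alone. The animals were male Sprague-Dawley rats, an outbred laboratory strain. Both groups ate a diet with 60% fructose and 0.64% NaCl for 8 weeks, so the fructose load, used to induce features of metabolic syndrome, is shared by the infused and the uninfused rats. Infusion was subcutaneous, at 200 ng per kg per min over the last 4 weeks. The other 6 arrays, from rats on a low sodium diet (under 0.01% NaCl) with and without the same infusion, entered the model as groups of their own and are used below to test whether the AngII effect differed between diets. Of 40 rats stated per diet, the labels do not say which or how many gave the RNA of an array, and no pooling is stated. The arrays are taken as replicates, and p-values then measure only the spread between these samples, which may be technical.

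AngII is the effector peptide of the renin-angiotensin system. It acts mainly through the AT1 receptor, a Gq-coupled receptor that activates phospholipase C, and it constricts vessels, raises aldosterone and blood pressure, and stimulates sympathetic and NADPH oxidase activity. In the heart, sustained AngII is known for cardiomyocyte hypertrophy with natriuretic peptide expression, for interstitial and perivascular collagen deposition by activated fibroblasts, and for vascular smooth muscle growth.

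Each array is one-colour (Cy3), and a value is the log2 of the background-corrected spot signal minus that of the array's own 75th percentile, so that a level of 0 is a probe at the 75th percentile. Levels are compared between arrays for 1 probe, and not between probes. On the 6 arrays the 75th percentile lay between 1399 and 1812 intensity units over a local background of 21.0 to 29.5, 70.2% to 79.1% of the probes were well above background, and no spot was saturated. Across probes, correlations of the levels were 0.980 to 0.991 within a group and 0.978 to 0.993 between the groups. Such correlations mostly reflect the differences in brightness between probes, so they cannot show whether the groups stand apart. Normal sodium replicate 1 had 88 non-uniform spots and the lowest array weight, 0.279. Of 16 genes used to check the tissue, all 8 ventricular ones (Myh6, Myl2, Myl3, Tnnt2, Tnni3, Actc1, Mybpc3 and Ryr2) were well above background on every array, at levels of 0.49 to 8.24 with AngII and 0.38 to 8.37 without. The 3 skeletal muscle genes that could be measured (Myh4, Tnnt3 and Actn3) lay at -7.32 to -4.62 with AngII and -6.89 to -4.15 without. Of the atrial genes, Myl4 was bright on all 6 arrays (6.76 to 7.07), while Sln and Myl7 lay between -3.87 and 0.65. The 3 slides each held 1 array of every group under one replicate number, so differences are also given within slides. Each group always had the same position on its slide, so position and group cannot be told apart.

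No single probe passed the test for an AngII effect on normal sodium. Of 20020 probes tested with limma, 0 (0.0%) had an adjusted p under 0.05, and the smallest adjusted p was 0.0565. At an unadjusted p under 0.05 there were 1453 probes (7.26%), 849 of them higher and 604 lower with AngII. The share of higher calls among these depended on the scaling: it was 58.4% here, 48.1% after quantile scaling, 40.6% after scaling by the array median, 43.7% after another background correction with quantile scaling, and 35.5% in the authors' own normalised values. Differences were small for most of the 11211 genes measured, which are each given by their brightest probe. The median difference was 0.01 on the log2 scale, 50% of the genes lay between -0.13 and 0.17, 92 were more than 1 higher and 34 more than 1 lower, and 5905 (52.7%) were above 0. The median standard error was 0.17, so a difference below about that size lies within the error of a typical gene. The direction followed the signal level. In the brightest 2803 genes 59 were higher and 169 lower at an unadjusted p under 0.05, with a median of -0.07. In the dimmest 2803 genes 175 were higher and 47 lower, with a median of 0.09. A dim gene can pass the filter through the group where it is higher. Of the 891 genes at that p, 87 were not well above background on all 6 arrays, 68 higher and 19 lower. Among the genes named, 33 differences were smaller by over 1.5 times or had the other sign after the other background correction (normexp with quantile scaling), 24 in the authors' values and 39 when some 1 array was left out, and examples are given with the genes. Genes named below are therefore described by their values and the limma p adjusted over all probes, and lists by counts set beside these shares of all genes: 4.42% were higher and 3.53% lower at an unadjusted p under 0.05, and in 7.57% all 3 AngII arrays lay above all 3 uninfused arrays and in 6.53% below them.

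**Figure D1:**
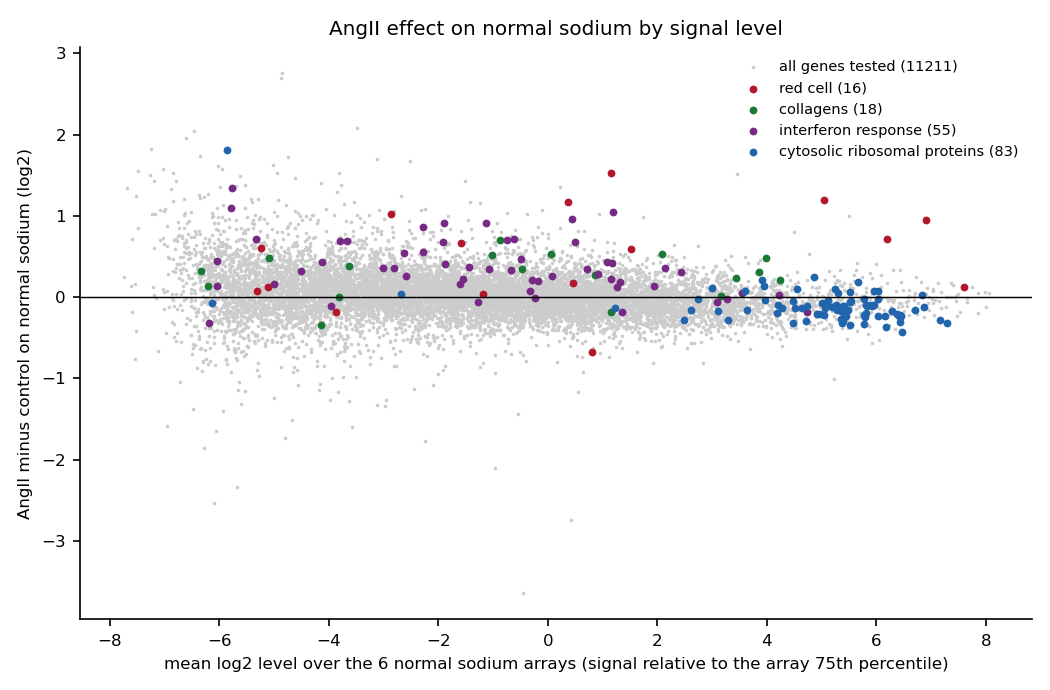
Each point is 1 of the 11211 genes tested, with its mean log2 level over the 6 normal sodium arrays (x axis) and its log2 difference, normal sodium with AngII minus normal sodium (y axis); 4 gene lists are coloured. Grey points lie mostly within 1 of 0 and spread more at low levels; red cell genes reach 1.53 and the bright ribosomal protein genes lie mostly below 0.

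Among named genes the smallest p belonged to Plcd4, phospholipase C delta 4, an enzyme that cleaves the membrane lipid PIP2 into the second messengers IP3 and diacylglycerol. Its log2 level was -3.54, -3.90 and -3.93 in AngII replicates 1, 2 and 3, against -2.34, -2.43 and -2.62 in the uninfused replicates. All 3 infused arrays lay below all uninfused ones, and a further Plcd4 probe gave -1.39 ± 0.17. The difference was -1.32 ± 0.15 (2.50-fold lower; adjusted p = 0.0565 by limma), and 16 of 54 genes of the AT1 receptor signalling list to which it belongs were below 0. On low sodium Plcd4 differed by 0.20, and a limma test of whether the diets differed had an adjusted p of 0.509. Plcd4 passed an adjusted p of 0.05 by limma when probes had to be well above background on all 6 arrays (0.0342). It also passed in the authors' values (0.0315), after the other background correction (0.0311) and without AngII replicate 1 (0.0447). No probe passed in any other setting. The smallest adjusted p was 0.0592 with quantile scaling, 0.0989 with median scaling and 0.101 with the slide as a block. On the 6 arrays alone this smallest p was 0.132, and with array weights 0.135.

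Of the 8 probes with the smallest p, 2 were for Plcd4, 4 for globins, 1 for Tuba3b and 1 had no gene symbol. That unnamed probe, A_64_P127742, had levels of 0.88, 1.34 and 1.65 with AngII against -0.32, -0.60 and -0.45 without, a difference of 1.75 ± 0.22 (adjusted p = 0.0565).

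The 12 higher and 12 lower genes with the smallest p had groups that did not overlap. Choosing genes by their p on the same arrays favours such groups, so this adds no separate evidence. Adjusted p-values below are limma's over all 20020 probes. Rnls, encoding the flavoprotein renalase, stood at -0.44, -0.29 and -0.14 with AngII and -0.97, -1.03 and -1.12 without (0.75 ± 0.12, adjusted p = 0.179). Every infused array lay above every uninfused one. Fgf17, a secreted fibroblast growth factor, was 1.41 ± 0.24 higher (adjusted p = 0.217), Gnao1, a G protein alpha subunit, 1.04 ± 0.20 (adjusted p = 0.386), and Tuba3b, an alpha-tubulin, 1.16 ± 0.17 (adjusted p = 0.128). Dnmt3a, a de novo DNA methyltransferase, was 0.86 ± 0.18 higher, Akr1c14, a hydroxysteroid dehydrogenase, 0.73 ± 0.15, and Mkrn1, a RING-type ubiquitin ligase, 0.63 ± 0.12. Hbb-b1, Alas2, Hbb-bs and Ltbp2, also in this set, are described with their lists below.

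On the lower side, Cdkn1c, the Cdk inhibitor p57, stood at -1.44, -1.56 and -1.45 with AngII and -1.004, -0.844 and -1.062 without (-0.52 ± 0.11, adjusted p = 0.473). By this probe its groups did not overlap, but its other probe gave -0.26 ± 0.15 with overlap. Otud7b, a deubiquitinase, was -1.77 ± 0.44 by its brightest probe but -0.06 ± 0.13 by its other probe. Other genes of the lower set were Rep15 (-0.85 ± 0.17), Kbtbd8 (-0.61 ± 0.15, and 0.04 by its other probe), Tmem218 (-0.42 ± 0.10), Prxl2a (-0.67 ± 0.17), Hs3st5 (-0.65 ± 0.17), Rabggtb (-0.47 ± 0.12) and the granzymes Gzmk and Gzmm. Among genes well above background on all 6 arrays with an unadjusted p under 0.05, the largest higher difference belonged to Alox15, an arachidonate lipoxygenase, with -2.49, -2.18 and -2.69 with AngII against -4.47, -4.59 and -4.54 without (2.08 ± 0.47, 4.24-fold, adjusted p = 0.581). Its 3 AngII arrays lay about 2 log2 units above the uninfused ones. The largest lower difference belonged to Apol7b, an apolipoprotein L family gene, at -2.74 ± 1.17, with levels of 1.33, -4.59 and 0.41 with AngII against 2.47, 1.39 and 1.51 without. It rests on AngII replicate 2, without which it was -0.92, and its other probe gave 0.45. Rnase1 (1.67 ± 0.73), Pcdh17 (1.43 ± 0.40), Add2 (1.38 ± 0.38) and Myl1 (1.63 ± 0.47) were also among the largest higher differences, and Lsr (-1.60 ± 0.62), Bex4 (-1.51 ± 0.65), Bik (-1.28 ± 0.45) and Serpina1 (-1.14 ± 0.42) among the largest lower ones. Several of these were smaller by another measure: other probes gave 0.39 ± 0.49 for Pcdh17 and -0.13 ± 0.30 for Lsr. After the other background correction Add2 was 0.86, Myl1 0.78, Bex4 -0.75 and Serpina1 -0.36. Without AngII replicate 2 Lsr was -0.75 and Bik -0.80, and without uninfused replicate 1 Bex4 was -0.99. Myl1 is a skeletal muscle light chain. The summed linear level of the skeletal muscle markers was 92.4 to 131 with AngII and 82.7 to 141 without, and overlapped. The skeletal genes Myh4, Tnnt3 and Actn3 lay at -7.32 to -4.62 with AngII and -6.89 to -4.15 without. The brightest markers dominate this sum, so it cannot show whether skeletal muscle in the samples differed. Penk, the enkephalin precursor, was 1.51 ± 0.64 higher with levels of 4.26, 5.20 and 3.15 with AngII and 3.65, 1.48 and 2.96 without, and these groups overlap.

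**Figure D2:**
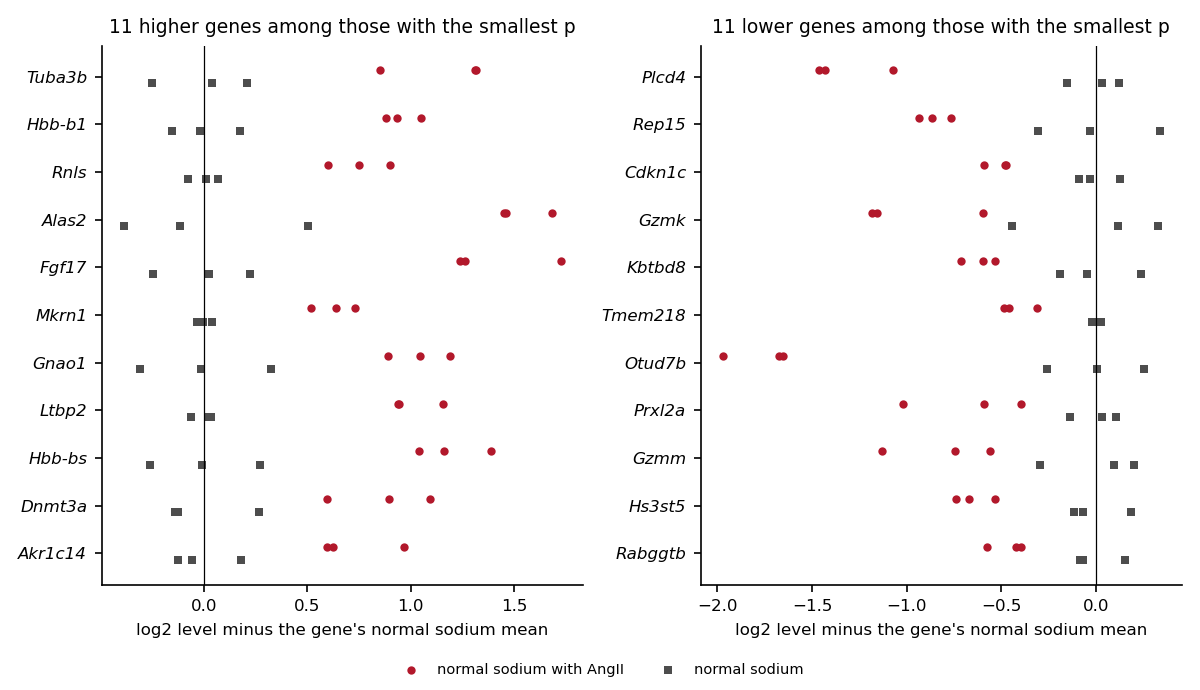
Log2 level on each array minus the gene's normal sodium mean, for 11 higher (left) and 11 lower (right) genes among those with the smallest p; red points are normal sodium with AngII and grey squares normal sodium, with 3 arrays each. In every gene shown the red points lie to one side of all grey squares, by 1.53 on average for Alas2 and -1.32 for Plcd4. The choice by p on these same arrays favours this.

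Genes of red cells were mostly higher with AngII, with 14 of 16 measured members above 0 and a median difference of 0.60. Haemoglobin is built from alpha-globin and beta-globin chains around heme; Alas2 is the erythroid enzyme that starts heme synthesis, and Klf1 is a transcription factor of erythroid cells that binds CACCC sequences in the beta-globin promoters. The promoters of the beta-globin genes Hbb, Hbb-b1 and Hbb-bs are shown because these 3 genes were higher with AngII (RefSeq, build GRCr8, each from 250 bases before to 50 after the gene start, 5′ to 3′ on the gene's strand, all on the minus strand of chromosome 1). Capitals mark matches to CCNCACCC, searched on both strands.
Hbb, chr1:167663672-167663971: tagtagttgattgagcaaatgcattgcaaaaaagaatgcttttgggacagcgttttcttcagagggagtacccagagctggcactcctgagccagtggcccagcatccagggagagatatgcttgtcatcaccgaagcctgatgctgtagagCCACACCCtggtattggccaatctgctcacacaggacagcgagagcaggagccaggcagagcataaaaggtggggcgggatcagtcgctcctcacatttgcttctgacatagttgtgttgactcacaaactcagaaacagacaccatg
Hbb-b1, chr1:167643471-167643770: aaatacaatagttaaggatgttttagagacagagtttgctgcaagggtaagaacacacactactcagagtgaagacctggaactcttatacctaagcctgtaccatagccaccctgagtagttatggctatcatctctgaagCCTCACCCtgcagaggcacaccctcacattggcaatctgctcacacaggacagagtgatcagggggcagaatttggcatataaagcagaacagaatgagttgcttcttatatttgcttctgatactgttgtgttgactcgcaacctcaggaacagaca
Hbb-bs, chr1:167631581-167631880: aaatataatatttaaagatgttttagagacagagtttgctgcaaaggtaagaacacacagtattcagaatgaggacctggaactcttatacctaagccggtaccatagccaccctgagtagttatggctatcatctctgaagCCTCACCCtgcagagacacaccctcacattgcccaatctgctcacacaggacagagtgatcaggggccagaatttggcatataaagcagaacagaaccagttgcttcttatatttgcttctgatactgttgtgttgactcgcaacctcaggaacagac
Of the 16 measured red cell genes, 12 had a RefSeq promoter, and 6 of the 12 held the motif, against 18.5% of the promoters of all genes tested and 15.4% of all promoters in the table. The motif was chosen after the values had been seen. Hbb-b1 and Hbb-bs hold the same match at the same position (-108) in near-identical promoters, so the 6 are not independent. The members that held the motif had a median difference of 0.83 and those that did not of 0.60. Alas2 had no match, which says only that these letters are not in this window.

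Of the 23 red cell genes with a probe on the array, 16 passed the detection filter, 14 of these were above 0 and 8 were higher and 0 lower at an unadjusted p under 0.05 (4.42% and 3.53% of all genes). In those 8 genes the groups did not overlap (7.57% of all genes in that direction). The median was 0.60, and 0.39, 0.40 and 0.83 on slides 1, 2 and 3. Hbb-b1, an adult beta-globin, had levels of 7.30, 7.36 and 7.47 with AngII, against 6.60, 6.27 and 6.40 without. Every infused array was higher than every uninfused one, with a difference of 0.95 ± 0.15 (1.94-fold, adjusted p = 0.141). Alas2 had levels of 1.84, 1.85 and 2.08 with AngII and 0.90, 0.01 and 0.28 without (1.53 ± 0.26, 2.89-fold, adjusted p = 0.193). Uninfused replicate 1 was the highest of its group in both genes and still below every infused array. Hbb-bs stood at 5.61, 5.49 and 5.84 with AngII and 4.72, 4.19 and 4.44 without (1.20 ± 0.24), and Hbb was 0.71 ± 0.15 higher. The other 4 of the 8 genes are named after their values were seen. Hba-a3, an alpha-globin, was 1.17 ± 0.26 higher. Rhd, a blood group membrane protein, was 1.02 ± 0.32 higher, Bpgm, the enzyme that makes the haemoglobin ligand 2,3-bisphosphoglycerate, 0.59 ± 0.25, and Klf1 0.61 ± 0.18 at a low level.

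The 8 tested probes of alpha-globin and beta-globin genes were above 0, from 0.12 to 1.40, and 7 had an unadjusted p under 0.05. Of the 3 tested probes of other globin genes, named after their values were seen, Hbe2 was 1.00 ± 0.23, and the dim Hbg1 and Hbz were 0.13 ± 0.57 and -0.08 ± 0.17, within their errors. Globin copies are nearly identical in sequence, so the probes cannot be taken as separate genes. The brightest globin probe, for Hba-a1, stood at 7.63, 7.76 and 7.62 with AngII and 8.15, 7.32 and 7.17 without (0.12 ± 0.22), which overlapped, while the dimmer Hba-a1 probe differed by 1.37 ± 0.21. The summed linear level of the red cell list was 504 to 556 with AngII and 315 to 481 without. Members outside the 8 lay between -0.67 (Tfrc, the transferrin receptor, which many other cells express) and 0.66. In bulk tissue, fewer cells of a type and less RNA per cell cannot be told apart, and how much blood each ventricle held was not tested. Hbb-b1 and Alas2 passed an adjusted p of 0.05 by limma in the authors' values (both 0.0315) and after the other background correction, and in no other setting.

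The fibrillar and other collagens, which give the interstitium its tensile strength, were higher in most members. Of 22 with a probe 18 were measured, 16 were above 0 and 7 higher and 0 lower at an unadjusted p under 0.05. The median was 0.31, with 0.37, 0.43 and 0.24 on the 3 slides. Col3a1, the chain of type III collagen, had levels of 4.25, 4.16 and 4.26 with AngII and 3.83, 3.54 and 3.86 without (0.48 ± 0.12, adjusted p = 0.669). Col8a1, a short-chain collagen of vessel walls, had -0.49, -0.53 and -0.55 with AngII and -1.51, -1.29 and -0.85 without (0.70 ± 0.23, adjusted p = 0.669). In both genes every AngII array lay above every uninfused one. Col5a1, which nucleates fibrils, was 0.53 ± 0.18 higher and Col18a1, a basement membrane collagen, 0.51 ± 0.18 (but 0.21 after the other background correction and 0.31 in the authors' values). Col1a1, the main chain of type I collagen, stood at 2.44, 2.20 and 2.43 with AngII and 1.49, 1.64 and 2.34 without (0.54 ± 0.20, adjusted p = 0.669), and its groups overlap, with uninfused replicate 3 at the level of the infused arrays. The collagen median was 0.20 without AngII replicate 1 (3 members higher at an unadjusted p under 0.05) and 0.19 without uninfused replicate 2.

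Elastic fibre genes had a like pattern: 15 of 21 were above 0, 4 were higher and 1 lower at an unadjusted p under 0.05, and the median was 0.27 (0.25, 0.33 and 0.15 by slide). Ltbp2, a microfibril protein of the latent TGF-beta binding protein family, had levels of -2.83, -3.04 and -3.05 with AngII and -3.96, -4.05 and -3.96 without. The groups did not overlap, and the difference was 1.01 ± 0.20 (2.02-fold, adjusted p = 0.415). Mfap4, a microfibril-associated glycoprotein, was 0.57 ± 0.17 higher and Eln, elastin, 0.50 ± 0.19. Efemp1 (fibulin-3) lay the other way, with -0.19, -0.32 and -0.20 with AngII against 0.14, 0.25 and 0.17 without (-0.43 ± 0.14, adjusted p = 0.669). Of the 19 matricellular proteins, which signal from the matrix rather than build it, 16 were above 0 and 4 were higher at an unadjusted p under 0.05, with a median of 0.34 (0.38, 0.38 and 0.10 by slide). These were Cilp, at -2.96, -2.14 and -3.17 with AngII and -3.81, -3.69 and -3.80 without (1.01 ± 0.31), Spon1 (0.63 ± 0.20), Fstl1 (0.40 ± 0.16) and Postn (0.96 ± 0.21). Postn, periostin, a product of activated fibroblasts, was dim, well above background on 1 of 3 uninfused arrays. After the other background correction Postn was 0.35, Cilp 0.62 and Fstl1 0.16, and in the authors' values Postn was 0.39 and Fstl1 0.23. The matricellular median was 0.11 after another background correction and 0.08 in the authors' values. Enzymes and signals of the same process differed less: 12 of 19 collagen processing enzymes (median 0.07) and 21 of 31 genes of TGF-beta and BMP signalling (median 0.14) were above 0. Tgfb1 itself was 0.46 ± 0.26 (adjusted p = 0.68), and Ccn2 (connective tissue growth factor) 0.37 ± 0.40 (adjusted p = 0.834). Timp1, an inhibitor of matrix proteases, was -0.15 ± 0.16 (adjusted p = 0.823).

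Every one of the 14 genes measured on the smooth muscle marker list was above 0, with 4 higher at an unadjusted p under 0.05 and a median of 0.50. The list includes Casq2 (0.09) and Myocd, which cardiomyocytes express as well. The slide medians were uneven, 1.04, 0.14 and 0.25. Acta2, alpha smooth muscle actin, also made by myofibroblasts, had -0.12, -0.75 and -0.59 with AngII and -1.10, -1.25 and -0.92 without (0.61 ± 0.20, adjusted p = 0.669). Myh11, the smooth muscle myosin heavy chain, had 1.43, 0.93 and 0.95 with AngII and 0.33, 0.51 and 0.72 without (0.58 ± 0.23, adjusted p = 0.669). The highest AngII array was replicate 1 in both genes, and in Myh11 and Tpm2, a tropomyosin (0.82 ± 0.33), the lowest uninfused array was replicate 1 as well. Without AngII replicate 1 the list median was 0.23, with 1 member higher at an unadjusted p under 0.05 (352 of all 11211 genes). Lmod1 had the widest difference (1.74 ± 0.51) but was well above background on 2 of 3 AngII and 1 of 3 uninfused arrays, its other probe gave 0.16, and the brightest one 0.12 in the authors' values. The summed linear level of the list, which its brightest genes dominate, overlapped: 57.2 to 75.1 with AngII and 57.4 to 69.3 without. The CArG box is the element of serum response factor in smooth muscle promoters. Its strict letters (CC, then 6 bases of A or T, then GG) were in 0 of 9 promoters of the list. The shares were 1.14% for all genes tested and 1.64% for all promoters. This says only that these exact letters are not in the 9 windows. Near matches were not counted, and the Acta2 window holds ccctatatgg, which differs from the letters by 1 base. Pericyte markers were above 0 in 10 of 11 (median 0.23; 0.16, 0.45 and -0.01 by slide), with Pdgfrb, the receptor that recruits pericytes, at 0.47, 0.58 and 0.25 with AngII and -0.11, -0.07 and 0.14 without (0.45 ± 0.15, adjusted p = 0.669). Fibroblast markers were above 0 in 15 of 20, with a median of 0.17, 1 higher at an unadjusted p under 0.05 (Vim, vimentin, 0.35 ± 0.12), and a summed level of 81.4 to 101 with AngII and 89.8 to 159 without. Cytoskeletal genes of the actin list were above 0 in 34 of 43 (median 0.14; 6 higher and 1 lower at an unadjusted p under 0.05). Among them the crosslinker Actn1 was 0.56 ± 0.18 higher, the membrane linker Msn 0.56 ± 0.19 and the filamin Flna 0.74 ± 0.28. The part of each cell type in the matrix, smooth muscle and red cell differences was not tested.

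**Figure D3:**
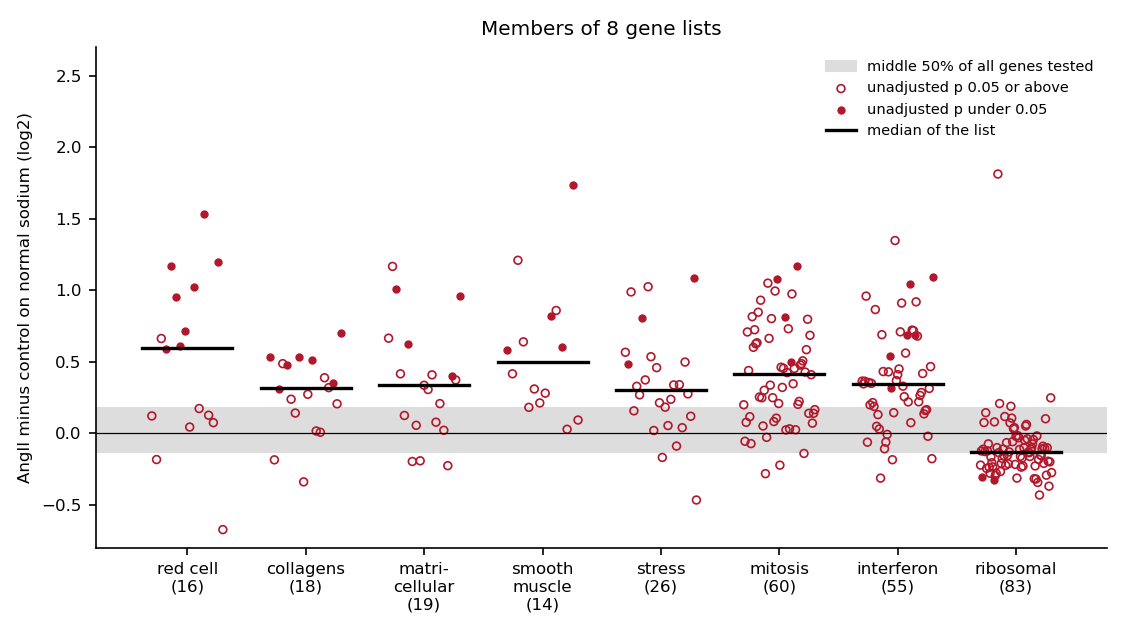
Log2 difference, normal sodium with AngII minus normal sodium, of every measured member of 8 gene lists; filled points have an unadjusted limma p under 0.05, black lines are list medians, and the grey band holds the middle 50% of all genes tested, -0.13 to 0.17. Red cell and smooth muscle lists have the highest medians (0.60 and 0.50), while ribosomal protein genes centre on -0.13.

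Cardiac stress and hypertrophy genes, many of them part of the fetal programme that loaded myocardium reactivates, were above 0 in 23 of 26 (median 0.30; 0.54, 0.11 and 0.14 by slide), with 3 higher at an unadjusted p under 0.05. Nppb, the gene of brain natriuretic peptide, had 4.66, 5.49 and 4.57 with AngII and 3.89, 4.88 and 3.54 without (0.81 ± 0.35, adjusted p = 0.669). Its groups overlap, yet on each slide the infused array was higher, by 0.77, 0.61 and 1.03. Nppa, atrial natriuretic peptide, had 2.86, 1.74 and 2.12 with AngII and 1.98, 2.38 and -0.61 without (0.99 ± 0.82, adjusted p = 0.77), and the difference rests on the low uninfused replicate 3, without which it was 0.055. Mustn1, a small nuclear protein of muscle, was 0.48 ± 0.18 higher without overlap, and Myot, the Z-disc protein myotilin, 1.08 ± 0.35 with overlap. Skeletal alpha-actin, Acta1, was 0.53 ± 0.31 (adjusted p = 0.68). The myosin heavy chains Myh7 and Myh6, whose ratio marks hypertrophy in rodents, differed by 0.04 ± 0.14 and -0.20 ± 0.18, each with overlapping groups, and Myh7 was -0.025 after scaling by the array median. Ventricular cardiomyocyte markers had a median of 0.01 with 13 of 19 above 0 and 0 at an unadjusted p under 0.05.

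Calcium handling genes were split, 11 of 22 above 0. Trdn (triadin), which anchors calsequestrin at the ryanodine receptor, was lower at 4.35, 4.39 and 4.33 with AngII against 4.87, 4.71 and 4.47 without (-0.33 ± 0.12, adjusted p = 0.669). Atp2b1, a plasma membrane calcium pump, was -0.39 ± 0.16, Hrc, a calcium-binding protein of the sarcoplasmic reticulum, -0.30 ± 0.12, and Itpr2, an IP3 receptor, 0.60 ± 0.26. The calcium pump Atp2a2 (SERCA2) and its inhibitor Pln differed by 0.10 ± 0.13 and 0.01 ± 0.13, within their errors, and their signs turned with the scaling (Atp2a2 -0.031 in the authors' values, Pln -0.057 after scaling by the array median). A dimmer Atp2a2 probe gave -0.26 ± 0.10, with levels of 3.28, 3.13 and 3.31 with AngII against 3.47, 3.50 and 3.53 without, so the probes disagree. Among potassium channel genes Kcne3, an accessory subunit, was 0.66 ± 0.20 (but 0.26 after the other background correction and 0.17 in the authors' values), and over the list 4 were higher and 3 lower of 53 at an unadjusted p under 0.05.

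Within the renin-angiotensin system 5 of 10 genes were above 0. Ace, angiotensin-converting enzyme, had -0.74, -0.76 and -0.83 with AngII and -1.13, -1.22 and -1.24 without. The groups did not overlap, and the difference was 0.42 ± 0.18 (1.34-fold, adjusted p = 0.669), but 0.15 after the other background correction and 0.26 in the authors' values. Prcp, a carboxypeptidase that degrades AngII, was 0.96 ± 0.33 with overlap (0.35 and 0.38 by these measures), and Agt (angiotensinogen) -0.47 ± 0.24 (-0.26 after the other background correction). The AT1 receptor gene Agtr1a had -3.19, -3.42 and -3.18 with AngII and -3.11, -3.11 and -3.23 without (-0.11 ± 0.12, adjusted p = 0.82), a difference smaller than its error. Downstream of the receptor, 38 of 54 signalling genes were above 0 (median 0.09), 5 were higher and 1 lower at an unadjusted p under 0.05. Against the lower Plcd4, its paralogue Plcd1 was 0.30 ± 0.12 higher (-0.43, -0.26 and -0.50 with AngII and -0.71, -0.68 and -0.70 without), as were Ppp3r1, the regulatory subunit of calcineurin (0.36 ± 0.14), and Camk2g, a calmodulin kinase (0.45 ± 0.18). In each of these the AngII arrays lay above the uninfused ones. Nox4, an NADPH oxidase that was well above background on 1 of 3 uninfused arrays, was 0.68 ± 0.52 (adjusted p = 0.748) but -0.50 in the authors' values. Edn1 (endothelin-1) was 0.20 ± 0.24 but -0.33 in the authors' values.

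**Figure D4:**
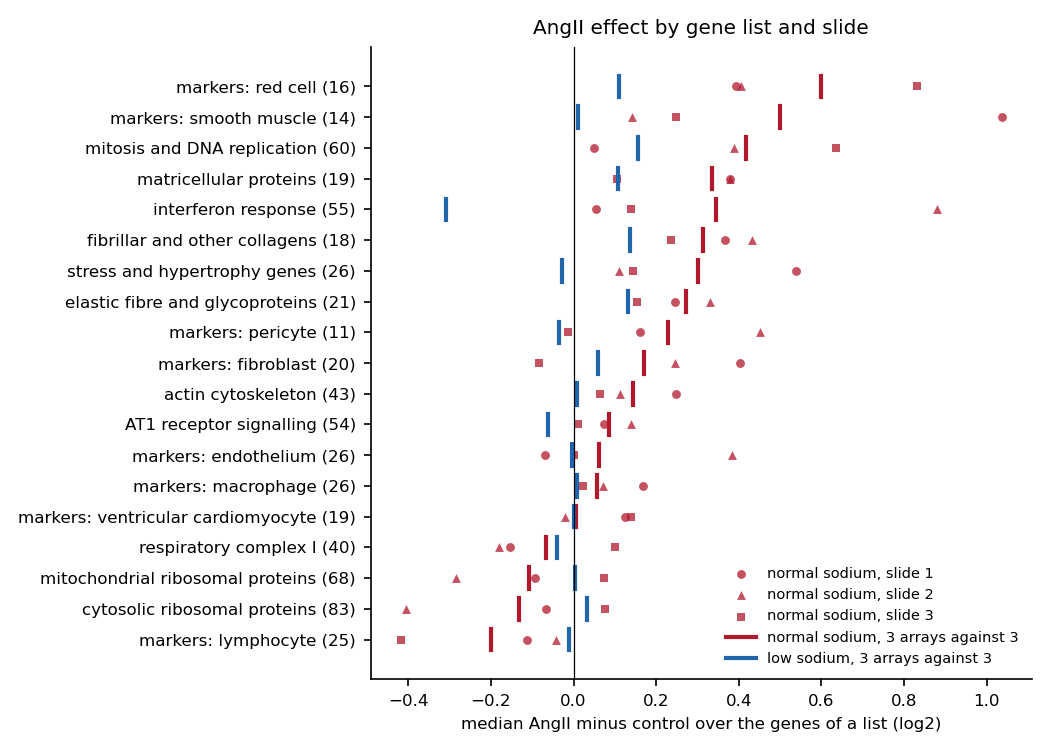
Median log2 AngII difference of 19 gene lists (number of measured genes in parentheses): red points are the 3 slides and red bars the 3 arrays against 3 on normal sodium, and blue bars the same on low sodium. Red cell and collagen medians are above 0 on all 3 slides, as are those of other lists such as smooth muscle and mitosis. The interferon median is also above 0 on all 3 slides but rests mostly on slide 2 (0.88), and its blue bar lies at -0.31.

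Interferon response genes are switched on through a DNA element, the interferon-stimulated response element, bound by interferon-activated transcription factor complexes and by IRF factors. Promoters of Irf7, a transcription factor that amplifies the type I interferon response, and Ifih1, the RNA sensor MDA5, are shown because these members had the smallest p of the list (RefSeq, GRCr8, 300 bases as above, 5′ to 3′ on the gene's minus strand). Capitals mark the element's core, which is GAAA, then 2 bases of any kind, then GAAA, searched on both strands.
Irf7, chr1:205799974-205800273: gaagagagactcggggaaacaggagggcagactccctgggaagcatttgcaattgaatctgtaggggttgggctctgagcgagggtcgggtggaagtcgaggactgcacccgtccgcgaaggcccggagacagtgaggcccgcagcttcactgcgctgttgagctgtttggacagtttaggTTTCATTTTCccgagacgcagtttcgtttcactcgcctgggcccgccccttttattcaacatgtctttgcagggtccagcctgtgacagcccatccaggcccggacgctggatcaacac
Ifih1, chr3:67683919-67684218: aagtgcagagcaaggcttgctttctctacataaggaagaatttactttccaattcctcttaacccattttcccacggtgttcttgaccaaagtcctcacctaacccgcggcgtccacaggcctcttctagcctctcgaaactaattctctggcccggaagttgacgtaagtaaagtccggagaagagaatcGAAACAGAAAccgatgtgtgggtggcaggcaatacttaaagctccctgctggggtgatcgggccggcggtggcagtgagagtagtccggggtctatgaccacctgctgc
The core was in 27 of 44 promoters of the list (61.4%), against 3.03% for all genes tested and 3.77% for all promoters. Within the list it did not go with the size of the difference: members with it had a median of 0.35 (25 of 27 above 0) and members without it of 0.35 (13 of 17 above 0).

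Of 57 interferon response genes with a probe 55 were measured and 47 were above 0, with 6 higher and 0 lower at an unadjusted p under 0.05 and a median of 0.34. Slides differed widely, at 0.05, 0.88 and 0.14. Irf7 had levels of 1.49, 1.96 and 1.68 with AngII and 1.01, 0.20 and 0.79 without. The groups did not overlap, and the difference was 1.05 ± 0.29 (2.06-fold, adjusted p = 0.669). Ifih1 had -3.51, -3.13 and -3.72 with AngII and -4.44, -4.05 and -3.93 without (0.69 ± 0.22, adjusted p = 0.669; 0.37 after the other background correction). Ifi47, an interferon-inducible GTPase, was 0.68 ± 0.27 with overlap, and Adar, the RNA-editing enzyme, 0.32 ± 0.13 without overlap. Uninfused replicate 2 was the lowest array for Irf7 and Ifi47; without it the list median was 0.16 with 2 members higher and 1 lower, and without uninfused replicate 1 it was 0.50 with 20 higher. Genes of antigen presentation, many of which interferon also induces, were split (10 of 19 above 0, median 0.03).

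On low sodium the interferon list lay below 0, with a median of -0.31, but unevenly by slide, at -0.50, -0.67 and 0.36 on slides 1, 2 and 3. Within the list 45 of the 55 genes (81.8%) were above 0 on normal sodium and below 0 on low sodium, against 31.8% of all genes. The test of the difference between diets had an unadjusted p under 0.05 for 17 of the 55, all with the higher value on normal sodium, where 618 of all 11211 genes (5.51%) had one in either direction. For Irf7 the AngII difference was 1.05 on normal sodium and -0.67 on low sodium (interaction, adjusted p = 0.857). Red cell genes had 6 of 16 at that level, also all higher on normal sodium, and differences of 1.53 on normal and 0.12 on low sodium for Alas2 (interaction, adjusted p = 0.857) and 0.95 and 0.16 for Hbb-b1 (interaction, adjusted p = 0.857). Over all 20020 probes 1014 (5.06%) had an unadjusted interaction p under 0.05, and 0 passed adjustment (smallest adjusted p 0.510), so no single gene was shown to respond differently by diet.

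**Figure D5:**
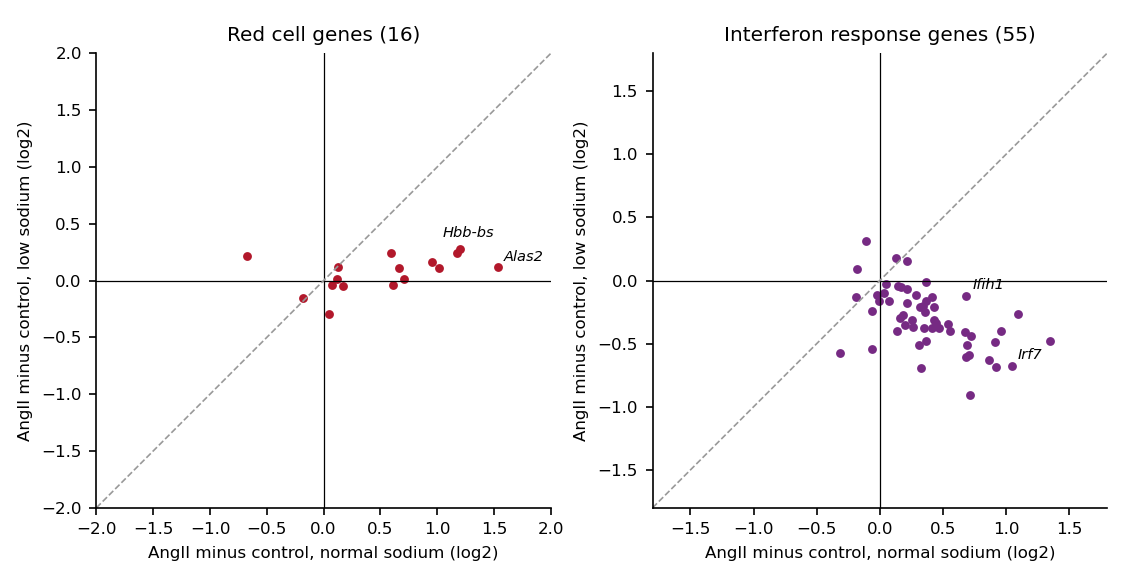
AngII minus control on normal sodium (x axis) against the same on low sodium (y axis), both log2, for 16 red cell genes (left) and 55 interferon response genes (right); the dashed line marks equal effects, and the axes rest on different arrays. Red cell points spread along the x axis near 0 on low sodium (-0.30 to 0.27), and 45 of the 55 interferon points lie right of 0 and below 0.

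Lymphocyte markers were mostly lower. Of 30 with a probe 25 were measured and 20 were below 0, with 3 lower and 1 higher at an unadjusted p under 0.05 and a median of -0.20 (-0.11, -0.04 and -0.42 by slide). Gzmk, granzyme K of cytotoxic T cells, had -4.40, -3.84 and -4.43 with AngII and -3.13, -3.69 and -2.92 without (-0.98 ± 0.23, adjusted p = 0.657). Gzmm, granzyme M of natural killer and T cells, which is not on the list, had -1.52, -1.34 and -1.91 with AngII and -0.68, -1.07 and -0.57 without (-0.81 ± 0.21, adjusted p = 0.669). Neither overlapped. Prf1, the pore-forming perforin, was -0.59 ± 0.24, and Foxp3, the regulatory T cell factor, -0.74 ± 0.29. Cd52, a surface glycoprotein that myeloid cells also carry, was the exception, at 1.00 ± 0.35. The summed level of the list was 3.12 to 3.36 with AngII and 3.31 to 4.30 without and overlapped. The median was -0.10 without uninfused replicate 3. Macrophage markers were split, 15 of 26 above 0 with a median of 0.06, and 0 had an unadjusted p under 0.05.

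Endothelial markers gave 3 higher and 2 lower of 26 at an unadjusted p under 0.05, with a median of 0.06. Plvap, the protein of fenestral and caveolar diaphragms, had -2.11, -2.43 and -2.56 with AngII and -1.41, -1.06 and -1.96 without (-0.89 ± 0.24, adjusted p = 0.669). Car4, a membrane-bound carbonic anhydrase of capillaries, had 2.08, 2.05 and 1.92 with AngII and 2.64, 2.25 and 2.83 without (-0.56 ± 0.18, adjusted p = 0.669). Both were lower on every infused array, while Aplnr, the apelin receptor, was higher (0.53 ± 0.22, adjusted p = 0.669).

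Genes of mitosis and DNA replication were above 0 in 54 of 60, with a median of 0.42 (0.05, 0.39 and 0.64 by slide), but 4 were higher at an unadjusted p under 0.05, and 14 with the slide as a block. Cenpa, the centromeric histone, had the smallest p of the list (0.82 ± 0.29, adjusted p = 0.669), but it was -0.32 in the authors' values. Ccnd2, cyclin D2, had 2.45, 2.86 and 2.27 with AngII and 2.18, 1.89 and 2.02 without (0.50 ± 0.21, adjusted p = 0.669), and the groups did not overlap. Kif18b, a mitotic kinesin, had -3.95, -3.94 and -2.64 with AngII and -5.23, -4.98 and -3.56 without (1.08 ± 0.46), where replicate 3 is high in both groups. Cenpf, a kinetochore protein, was 1.17 ± 0.47. In the authors' values Kif18b was 0.66 and Cenpf 0.34, and without AngII replicate 3 they were 0.64 and 0.65. Without AngII replicate 3 the list median was 0.06, and it was 0.17 after another background correction and 0.11 in the authors' values.

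Bright housekeeping lists lay below 0. Of 83 cytosolic ribosomal proteins 68 were below 0, with a median of -0.13 and 2 lower at an unadjusted p under 0.05, or 7 with the slide as a block. Slide 3 had the other sign (-0.07, -0.41 and 0.08). Rps28, a small subunit protein, had 5.63, 5.58 and 5.62 with AngII and 6.19, 5.99 and 5.62 without (-0.33 ± 0.14), with overlap. For mitochondrial ribosomal proteins 50 of 68 were below 0 (median -0.11), for respiratory complex I 31 of 40 (median -0.07) and for complexes II to V 26 of 46 (median -0.04). Slide 3 had the other sign here too. By slide the medians were -0.09, -0.28 and 0.07 for mitochondrial ribosomal proteins, -0.15, -0.18 and 0.10 for complex I, and -0.05, -0.16 and 0.11 for complexes II to V. The brightest 2803 genes as a whole had a median of -0.07, so the respiratory medians do not stand apart from bright genes. The cytosolic ribosomal median was -0.03 without uninfused replicate 2. Without uninfused replicate 3 it was -0.21, with 27 members lower at an unadjusted p under 0.05. In that setting 624 of all 11211 genes were lower at that level.

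Metabolic genes differed in direction gene by gene. Acsl1, the long-chain acyl-CoA synthetase of the heart, had 5.49, 5.23 and 5.60 with AngII and 6.01, 5.90 and 5.67 without (-0.41 ± 0.14, adjusted p = 0.669). Lpl, lipoprotein lipase, had 3.80, 3.85 and 3.97 with AngII and 3.27, 3.65 and 3.44 without (0.42 ± 0.18, adjusted p = 0.669). These lay in opposite directions, each without overlap. Ucp3, a mitochondrial carrier, was -1.17 ± 0.41 with overlap, and the fatty acid list as a whole was split (21 of 43 above 0, median -0.01). In cholesterol synthesis 22 of 36 were below 0 and 3 had an unadjusted p under 0.05, all of them enzymes of the sterol branch: Sc5d (-2.63, -2.14 and -2.20 with AngII and -1.74, -1.65 and -1.69 without; -0.63 ± 0.16), Lss (-0.40 ± 0.18) and Cyp51 (-0.33 ± 0.14, with overlap). Peroxisomal genes were below 0 in 19 of 32, with 3 lower and 0 higher at an unadjusted p under 0.05. Among these were Pex11a, which proliferates peroxisomes in response to lipid (-0.93 ± 0.40, with overlap), and Crot, an octanoyltransferase (-0.28 ± 0.11).

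Across all 74 gene lists 51 had a median within 0.1 of 0, 19 above and 4 below. Olfactory receptor genes, which encode sensory receptors of the nose, served as a list without a known role in the ventricle. Of 110 measured 57 were above 0, 5 were higher and 3 lower at an unadjusted p under 0.05, and the median was 0.01. Of the 495 genes higher at that level 438 were higher on all 3 slides, and of the 396 lower genes 355 were lower on all 3. The genes were chosen by their p on the same arrays, which favours one sign on all slides. These counts are therefore not a replication between slides. Those that were higher had a median AngII difference of -0.04 on low sodium, and those that were lower of 0.05.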

How the data were processed

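RNA from 12 left ventricle samples was hybridised to Agilent one-colour arrays. Per the file headers, the authors' scanner files hold the intensity of each spot, background-subtracted by Feature Extraction and not scaled between arrays. The authors' deposited table of log2 values, normalised by a method not given in the sources used here, served as an alternative; the submitters' processing notes name Feature Extraction 11.0.1.1, R 3.3.04 and limma.

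From these files the log2 signal minus each array's 75th percentile was computed, and spots were averaged per probe. Control and outlier spots were left out. Probes had to be well above background on all 3 arrays of at least 1 of the 4 groups (20020 of 30367 probes). Groups were compared with limma 3.58.1 in R 4.3.3 over all 12 arrays, two-sided, with Benjamini-Hochberg adjustment at 0.05. In the report ± is limma's standard error with 3 arrays per group. Symbols came from RefSeq, GRCr8 (13280 tested probes, 11211 genes), and a gene is given by its brightest tested probe. The number of arrays limits the precision.

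Same-numbered arrays of both groups shared a slide, and their deviations from the group means correlated at 0.35, 0.16 and 0.19, so the slide was also fitted as a block. Genes named were the 12 smallest p in each direction, the 8 largest differences in each direction among genes with p under 0.05 and well above background on all 6 arrays, up to 4 members with the smallest p per list, and a fixed panel of cardiac and AngII genes; some of them are not reported here. The members and lists were chosen with earlier results of these data known. The method was tested on simulated data. Alternatives were another background correction (normexp, offset 50) with quantile scaling, the authors' values, quantile or median scaling, other filters, the 6 arrays alone, the block, array weights, each replicate left out and, chosen after seeing the data, the mean of a gene's probes.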

Additional observations from a re-analysis of the deposited data

Results flagged for a closer look

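In 8 of the genes named above, the AngII difference had one sign on all 3 slides of the normal sodium arrays and the other sign on all 3 slides of the low sodium arrays. The difference between diets was tested for each with limma, and the adjusted interaction p was 0.857 for every one of them, so none passed. As log2 differences, normal sodium minus low sodium, the values were 1.14 for Dnmt3a, -0.68 for Cdkn1c, -1.07 for Hs3st5 and -2.68 for Otud7b. They were -1.59 for Foxp3, -1.23 for Plvap, -0.48 for Crot and -0.53 for Cyp51. For Foxp3 the slide differences were -0.78, -0.44 and -0.99 on normal sodium and 0.58, 1.03 and 0.94 on low sodium. For Plvap they were -0.70, -1.37 and -0.60 on normal sodium and 0.20, 0.81 and 0.01 on low sodium, the last of these near 0. The Otud7b value rests on the brighter of 2 probes that disagree. Most of these genes were named for a small p on normal sodium, so the normal sodium side of the difference was favoured by that choice. Opposite signs between the diets were common when slides were not taken singly. Of all 11211 genes, 3570 were above 0 on normal sodium and below 0 on low sodium, and 2791 the other way. How many of all genes kept opposite signs on every slide was not counted. Whether 8 is more than chance would give was therefore not tested.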

How the results depend on the processing

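Of 20020 probes 0 passed adjustment, against 6 after normexp with quantile scaling, 5 in the authors' values and 3 among probes well above background on all 6 arrays. Leaving out 1 array gave 0 to 2 (2 without AngII replicate 1). Probes at an unadjusted p under 0.05 numbered 1453, and 746 (without AngII replicate 2) to 2316 (without uninfused replicate 3) when 1 array was left out. With the slide as a replicate block 0 probes passed adjustment (smallest adjusted p 0.101) and 1058 were higher and 631 lower at an unadjusted p under 0.05. The block moved the counts of the mitosis and ribosomal lists as given above. Of 1623 recomputed gene differences 1608 kept their sign. The 15 with the other sign belong to 9 genes. Part of the 1608 kept their sign by construction. The other filters, the 6 arrays alone and the block leave a gene's difference the same or nearly so. In the authors' values Cenpa was -0.32, Edn1 -0.33, Nox4 -0.50 and Atp2a2 -0.031. After normexp Atp2a2 was -0.079 and Myh6 0.00011, and the mean of its probes gave -0.081 for Atp2a2. Median scaling gave -0.025 for Myh7 and -0.057 for Pln. Leaving out 1 array in turn gave -0.10 to 0.85 for Ccn2, -0.064 to 0.15 for Myh7, -0.11 to 0.073 for Pln and -0.25 to 0.0029 for Timp1, with the other sign without AngII replicate 2 (Ccn2, Myh7, Pln and Timp1) or uninfused replicate 3 (Myh7 and Pln). Of 480 recomputed list medians 446 moved by less than the spread between slides. The 6 arrays alone and the block left these medians the same or nearly so as well. A list whose slides differ widely also meets this bound more easily. The cause of the changes with the processing was not tested. The signal limits the precision: the median standard error was 0.28 in the dimmest 2803 genes and 0.14 in the brightest 2803.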
